A study of Mus musculus with 4 samples.

Results

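Initiation of transcription was examined at 10 imprinted mouse genes that lie in 7 separate loci: Peg3, Usp29, Zim1, Peg10, Sgce, Mest, Plagl1, Grb10, Gnas and Zdbf2. The genes were chosen by name, from 21938 annotated protein-coding genes and 55413 annotated genes of every type, and not by any measured value. The data are 4 PRO-seq libraries, 2 from liver and 2 from yolk sac, collected at stage E14.5, with the tissue of 6 embryos pooled into each library. PRO-seq maps engaged RNA polymerases by a nuclear run-on, which here was performed on isolated chromatin. All embryos of both tissues came from C57BL/6J mothers and from fathers of mixed C57BL/6J and CAST/EiJ background, and the strain label of each library reads Mixed C57BL/6h and CAST/EiJ. The fathers had been selected to carry CAST/EiJ variants on chromosome 12, at Dlk1/Gtl2, alone, and the 10 genes described here lie on other chromosomes. The labels name no engineered allele and no treatment. The parental copy behind each peak was not analysed here.

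At an imprinted gene the copies inherited from mother and father are transcribed unequally. At many such genes the difference traces to DNA methylation that was laid down in the egg or the sperm. Several of these genes share a promoter region with a divergent neighbour, and others have a series of alternative promoters, some with an imprint of their own. Many imprinted genes act on fetal growth and on the function of the placenta and other extraembryonic tissues such as the yolk sac.

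Each library is described by a list of dREG peaks. dREG is a classifier that reads the pattern of run-on reads and marks where transcription begins, in promoters as well as in enhancers and other remote elements. A peak has a position, a width and a deposited score, and the score is used here only as a percentile within its own list, where 100 is the highest. The liver lists held 24863 and 24333 peaks for replicates 1 and 2, and the yolk sac lists held 50525 and 43055. Read counts and depth are unknown, and a longer list can therefore not be told apart from a deeper library. Because the lists differ in length, percentiles are compared between genes of 1 list and never between lists. Below, values are given in the order liver replicate 1, liver replicate 2, yolk sac replicate 1, yolk sac replicate 2. Positions are 1-based on mm10 (GRCm38), and start sites are those of GENCODE vM21 unless RefSeq is named.

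The promoter stretches on which the results turn are shown first, so that called and uncalled starts can be compared. They are RefSeq promoter sequences of GRCm38.p6, written 5′ to 3′ on the strand of the gene and cut back to bases outside any annotated exon. Capitals mark TGCCGC, the core that the imprint-maintaining protein ZFP57 recognises, and TATAAA, the TATA box. Both were searched on both strands, so a site on the opposite strand reads GCGGCA or TTTATA. The first stretch is the whole space between the divergent first exons of Peg3 and Usp29, and it lay inside a peak in each of the 4 lists. The next ones set a start of Mest and of Grb10 that was called in all 4 lists beside a start of the same gene that was called in none.
Peg3 to Usp29, chr7:6730432-6730577, minus strand: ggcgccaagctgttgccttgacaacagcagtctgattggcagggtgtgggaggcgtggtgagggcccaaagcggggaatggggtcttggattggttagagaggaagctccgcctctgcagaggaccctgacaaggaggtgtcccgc
Mest main start, called in all 4, chr6:30737800-30738049, plus strand: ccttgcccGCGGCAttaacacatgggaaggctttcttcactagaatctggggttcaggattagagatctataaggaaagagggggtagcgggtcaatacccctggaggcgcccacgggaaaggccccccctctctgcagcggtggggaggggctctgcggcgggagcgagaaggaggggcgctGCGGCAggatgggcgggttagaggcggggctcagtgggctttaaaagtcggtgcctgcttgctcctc
Mest intermediate start, called in none, chr6:30733256-30733453, plus strand: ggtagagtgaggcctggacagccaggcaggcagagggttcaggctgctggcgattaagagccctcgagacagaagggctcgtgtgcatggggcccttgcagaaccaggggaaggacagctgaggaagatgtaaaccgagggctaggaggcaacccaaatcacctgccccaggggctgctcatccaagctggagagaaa
Grb10 main start, called in all 4, chr11:12037421-12037670, minus strand: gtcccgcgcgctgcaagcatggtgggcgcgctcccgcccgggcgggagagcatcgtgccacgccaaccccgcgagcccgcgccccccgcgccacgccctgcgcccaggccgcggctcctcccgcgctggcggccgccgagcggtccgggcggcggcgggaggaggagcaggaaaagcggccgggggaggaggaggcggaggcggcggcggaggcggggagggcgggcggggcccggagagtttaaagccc
Grb10 internal start, called in none, chr11:12027972-12028221, minus strand: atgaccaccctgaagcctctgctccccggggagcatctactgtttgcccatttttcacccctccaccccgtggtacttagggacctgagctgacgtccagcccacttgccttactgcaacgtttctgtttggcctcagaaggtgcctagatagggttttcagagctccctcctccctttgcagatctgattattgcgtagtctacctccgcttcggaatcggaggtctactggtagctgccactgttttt

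The remaining ones belong to starts at which the libraries differed. The Nesp stretch of Gnas was covered by peaks over 219, 0, 250 and 250 of its 250 bases. The stretch before the exon 1A starts of Gnas was covered over all 71 bases in both liver lists and over 0 bases in both yolk sac lists. The stretch before the main Zdbf2 start was covered over 0, 75, 105 and 105 of its 105 bases. The upstream Zdbf2 stretch was covered in no list.
Gnas Nesp start, chr2:174284070-174284319, plus strand: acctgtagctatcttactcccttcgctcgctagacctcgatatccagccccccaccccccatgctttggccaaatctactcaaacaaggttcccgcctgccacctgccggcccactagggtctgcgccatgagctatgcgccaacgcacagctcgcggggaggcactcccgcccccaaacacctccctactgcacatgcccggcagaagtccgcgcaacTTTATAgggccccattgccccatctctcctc
Gnas exon 1A, chr2:174327499-174327569, plus strand: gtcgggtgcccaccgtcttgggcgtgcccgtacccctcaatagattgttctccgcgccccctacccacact
Zdbf2 main start, chr1:63273121-63273225, plus strand: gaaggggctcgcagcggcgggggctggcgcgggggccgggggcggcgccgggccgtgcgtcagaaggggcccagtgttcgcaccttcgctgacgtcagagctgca
Zdbf2 upstream start, chr1:63200108-63200312, plus strand: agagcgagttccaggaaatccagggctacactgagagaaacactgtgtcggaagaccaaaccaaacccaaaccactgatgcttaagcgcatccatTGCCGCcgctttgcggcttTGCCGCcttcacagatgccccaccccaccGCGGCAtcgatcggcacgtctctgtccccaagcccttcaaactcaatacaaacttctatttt

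In sequence, 8 of the 10 genes had an entry in the promoter table, with 15 starts between them, and Peg10 and Sgce had none. TGCCGC occurred in the 250 bases before 5 of the 15 starts, in 4 genes, against 8.68% of 32851 RefSeq promoters of the same length. The main Mest start had 2 copies, at 242 and 67 bases before the start, and the neighbouring Mest start 3 bases on reads the same copies. The upstream Zdbf2 start had 3 copies, at 155, 136 and 107 bases before it. Zim1 had 1 copy 20 bases before its start and Plagl1 had 1 copy 90 bases before its start. GCCATNTT, the core bound by YY1, was in 0 of the 15 windows, against 3.91% of all promoters. TATAAA was in 3 of the 15, all of them Gnas starts and all on the opposite strand, against 12.4% of all promoters. Both of the exon 1A starts among them read the same copy, so that there were 2 distinct sites. The Nesp start had it 31 bases upstream. GC content ran from 52.8% to 81.2%, against a median of 52.4% over all promoters. The 8 starts called in all 4 lists had 60% to 81.2% GC, and the 3 called in none had 52.8% to 60.8%. A match of letters is a description of the window and not evidence of a bound factor.

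The first question was whether each gene was initiated in both tissues. A gene was called in a library when a peak overlapped the 500 bp on either side of any of its annotated starts. By this rule 9, 10, 10 and 10 of the 10 genes were called, where the lists called 56.1%, 57.9%, 63.8% and 62.5% of all protein-coding genes. Among the 10, 9 were called in all 4 libraries, a pattern held by 53.8% of all protein-coding genes, and 0 were called in none, against 34.2%. The exception was Zdbf2, which encodes a zinc finger protein and was called in liver replicate 2 and both yolk sac lists but not in liver replicate 1. That pattern is held by 2.23% of protein-coding genes. None of the 10 genes was called in 1 tissue alone, against 5.26% of protein-coding genes for yolk sac and 1.01% for liver. With shares that low, few sets of 10 genes would hold many such cases, so their absence is no trait of these genes. The choice of start, the width of the peak and the number of peaks across each locus are described below.

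For comparison, a list of 40 other imprinted genes was called in 29, 33, 36 and 35 members. Of these, 28 were called in all 4 libraries, 0 in liver alone and 1 in yolk sac alone, and 4 had no peak in any list. The yolk sac one was Sfmbt2, a Polycomb-related gene. The 4 without a peak were Ndn, Rtl1, Rasgrf1 and Calcr. Kcnq1, Magel2, Mkrn3, Peg12 and Dcn had the same pattern over the 4 libraries as Zdbf2.

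Promoter peaks were wider in yolk sac at most of these genes. Of the 9 genes called in all 4 libraries, 8 had a wider peak in both yolk sac lists than in either liver list and 1 had a narrower one. Over the 11805 protein-coding genes called in all 4, 35.6% were wider in this sense and 20.7% were narrower. The median change over the 9 genes was 0.72 on the log2 scale (1.65-fold), against 0.06 (1.04-fold) over all genes. A second summary of the same widths, the median over the genes within each library, differed by 0.35 between the tissues, a smaller value. Since Peg3 shares its peak with Usp29 and Peg10 with Sgce, the 9 genes stand for 7 distinct peaks, of which 6 were wider in yolk sac. An exact two-sided permutation test of 2 libraries against 2 cannot go below p = 0.3333, and each of these 9 single comparisons gave that value. For that reason the gap between the nearest libraries of the tissues is set against the differences between replicates. The gap exceeded both replicate differences at each of these genes except Zim1 and Grb10. The plot of promoter peak widths shows the value of each library.

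**Figure D1:**
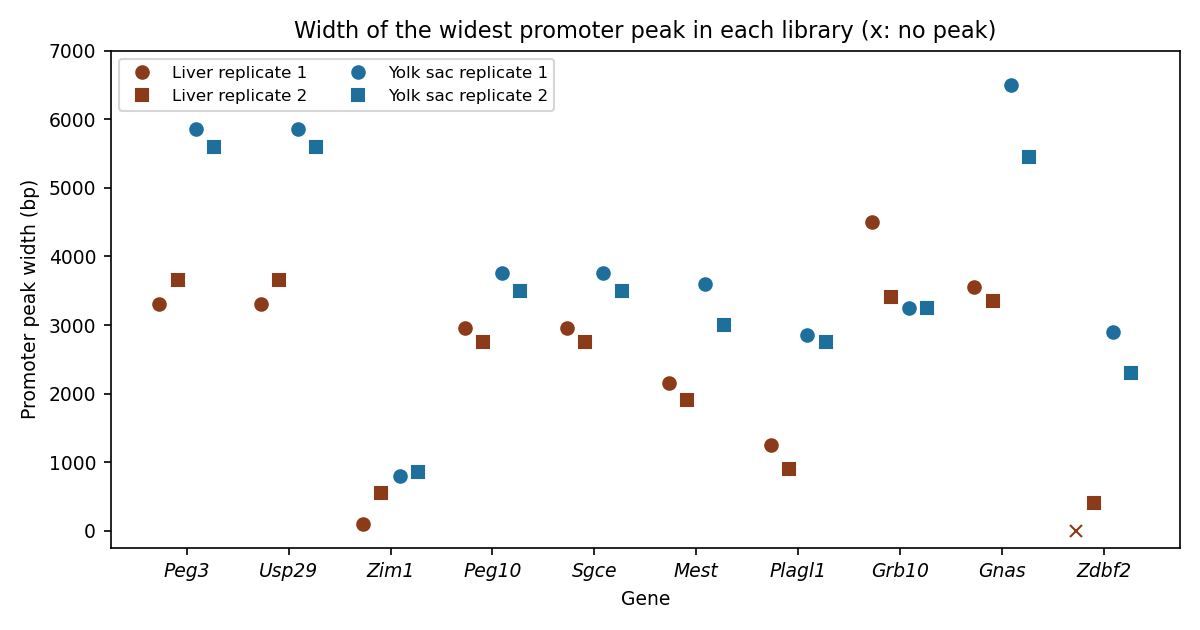
Width in bp (vertical axis) of the widest promoter peak of each of the 10 genes (horizontal axis) in each of the 4 libraries; circles are replicate 1, squares are replicate 2, and a cross marks a library without a peak. Yolk sac points lie above both liver points at every gene except Grb10; Peg3 and Usp29, and Peg10 and Sgce, show 1 shared peak each.

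Peg3 encodes a zinc finger protein expressed from the paternal copy, and Usp29, which encodes a ubiquitin-specific protease, starts 147 bp away in the opposite direction. Their shared peak on chromosome 7 was 3302, 3652, 5852 and 5602 bp wide. Liver averaged 3477 ± 247 bp and yolk sac 5727 ± 177 bp (SD, n = 2), which is 1.65-fold wider. Most of the added width lay on the Usp29 side: the peak reached 574 and 574 bp past the first Usp29 start in liver and 2524 and 2374 bp in yolk sac. On the Peg3 side it reached 2580, 2930, 3180 and 3080 bp past the first Peg3 start. In liver a second, separate peak stood on the Usp29 side, 1152 bp wide after a gap of 648 bp in replicate 1 and 452 bp wide after a gap of 1248 bp in replicate 2. The wider yolk sac peak therefore spans sequence in which the liver lists show 2 peaks.

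Zim1, a maternally expressed zinc finger gene of the same locus, had the narrowest promoter peak of the 10 genes in every list in which they were called, except liver replicate 2, where that of Zdbf2 was narrower. Its widths were 102, 552, 802 and 852 bp. Liver averaged 327 ± 318 bp and yolk sac 827 ± 35.4 bp (SD, n = 2), and the mean log2 widths differed by 3.48-fold. This value rests on the liver libraries, which differed: it was 1.498-fold without liver replicate 1 and 8.10-fold without liver replicate 2. The gap of 250 bp between the nearest libraries of the tissues was smaller than the 450 bp between the liver replicates. The difference at Zim1 therefore does not stand clear of the replicate error. In liver replicate 1 the peak was of the minimum width found in the lists and began 148 bp inside the gene.

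Peg10, a gene derived from a retrotransposon and needed for placental development, starts 99 bp from Sgce, which encodes epsilon-sarcoglycan. Their shared peak on chromosome 6 was 2952, 2752, 3752 and 3502 bp wide. The means of 2852 ± 141 bp and 3627 ± 177 bp (SD, n = 2) differed by 1.27-fold, the smallest ratio among the 6 peaks that were wider in yolk sac. Most of the added width lay on the Sgce side, where the peak reached 606, 456, 1156 and 1056 bp past the first Sgce start. On the Peg10 side it reached 2246, 2196, 2496 and 2346 bp.

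Mest encodes a protein with a hydrolase fold and is known for expression in embryonic mesoderm. The peak at its main start was 2152, 1902, 3602 and 3002 bp wide, or 2027 ± 177 bp on average in liver and 3302 ± 424 bp in yolk sac (SD, n = 2), which is 1.63-fold wider. The peak reached 499, 399, 1499 and 1349 bp upstream of that start. When each gene was represented by its widest promoter peak, the score of this peak was the highest of the 10 genes in both yolk sac lists, at percentiles 99.8 and 97.7. In the liver lists, ranked in the same way, it was 7th of the 9 and 9th of the 10 called genes, at percentiles 47.6 and 30.9.

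Plagl1, a zinc finger transcription factor gene, had widths of 1252, 902, 2852 and 2752 bp. Its means were 1077 ± 247 bp and 2802 ± 70.7 bp (SD, n = 2). The mean log2 widths differed by 2.64-fold, the largest difference after that of Zim1. The peak grew on both sides of the start and reached 761, 561, 1911 and 1911 bp into the gene.

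Grb10 encodes an adaptor that restrains insulin and IGF receptor signalling. It was the only one of the 9 genes whose peak was narrower in yolk sac, with widths of 4502, 3402, 3252 and 3252 bp. Liver averaged 3952 ± 778 bp and yolk sac 3252 ± 0 bp (SD, n = 2). The gap of 150 bp between the nearest libraries of the tissues was smaller than the 1100 bp between the liver replicates, so this difference does not stand clear of the replicate error.

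Gnas encodes the stimulatory G protein subunit Gs-alpha and, from other promoters, further products of which some come from only 1 parental copy. Its widest promoter peak was called at the start of XL-alpha, the paternally expressed long form, and was 3552, 3352, 6502 and 5452 bp wide. The liver peaks ended 57 and 7 bp before that start and were called there through the 500 bp window. They lay over the start of the antisense RNA Nespas, so their widths and scores are not values of XL-alpha alone. The means of 3452 ± 141 bp and 5977 ± 742 bp (SD, n = 2) differed by 1.73-fold. By the widest peak of each gene, its score ranked first among the called genes in both liver lists, at percentiles 72.4 and 74.6. Zdbf2 has no value in liver replicate 1, and its peak was 402 bp wide in liver replicate 2 and 2902 and 2302 bp in yolk sac.

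The second question was which of the alternative starts were in use. The annotated starts of the 10 genes fall into 39 groups when starts of 1 gene within 500 bp are chained, and 13, 13, 18 and 16 groups were called. Of the 39, 11 were called in all 4 libraries, 3 in yolk sac alone, 0 in liver alone, 4 in another pattern and 21 in none. Over 52546 such groups of all protein-coding genes, 27.3% were called in all 4, 5% in yolk sac alone, 1.22% in liver alone and 61% in none. The 18 groups of these genes with a peak in any library compare with 39% of all groups. The 21 uncalled groups included all internal starts of Peg3, Usp29, Zim1 and Plagl1, and the 5′-most Plagl1 start.

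Gnas had the most varied use of starts, as the map of its peaks shows. The order along the chromosome is Nesp, then XL-alpha 13.5 kb further on, then exon 1A, then the Gs-alpha start 2.24 kb after exon 1A and 32.1 kb after XL-alpha. Nesp is the start of the maternally expressed NESP55 protein, exon 1A is the paternally expressed noncoding start, and Nespas is an antisense RNA whose first start lies 2.42 kb before that of XL-alpha.

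**Figure D2:**
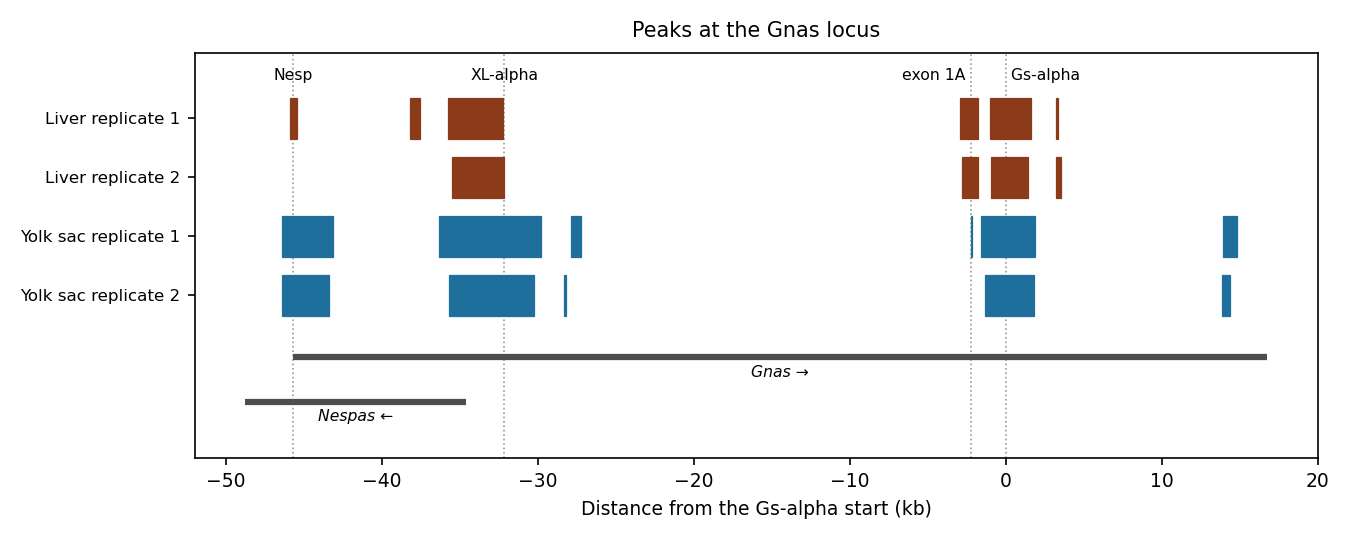
Peaks (boxes) of the 4 libraries along the Gnas locus, as distance from the first Gs-alpha start in kb; dotted lines mark the Nesp, XL-alpha, exon 1A and Gs-alpha starts, and bars below mark the genes with their direction. Yolk sac peaks at Nesp are 3302 and 3052 bp wide against 502 bp and no peak in liver, while the liver peaks at exon 1A are 1152 and 1002 bp wide against 102 bp and no peak in yolk sac.

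At the Nesp start the peak was 502 bp wide in liver replicate 1, absent in liver replicate 2, and 3302 and 3052 bp wide in yolk sac. Within their lists these peaks stood at percentiles 19.7, 74.9 and 84.5, the first in liver replicate 1. The call in both yolk sac lists and liver replicate 1 without replicate 2 is held by 0.588% of all start groups. The libraries of yolk sac are thus alike and the liver replicates differ in the call itself. Both yolk sac peaks ran 2582 and 2332 bp past the Nesp start and so also covered a pair of starts near 174285256 that no liver peak reached.

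At exon 1A the order was the opposite. The peak was 1152 bp wide in liver replicate 1 and 1002 bp in liver replicate 2, at percentiles 65.0 and 77.8 of their lists. Yolk sac replicate 1 had a peak of 102 bp there, at percentile 5.72, and yolk sac replicate 2 had none within the window, its nearest peak starting 628 bp past the last exon 1A start. The Gs-alpha peak of yolk sac replicate 1 started 378 bp past that start and so also fell within the window. The call of both liver lists and yolk sac replicate 1 without replicate 2 is held by 0.308% of all start groups. In both yolk sac lists the neighbouring Gs-alpha peak was wider and reached 1605 and 1355 bp upstream of its start, against 1005 and 955 bp in liver.

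At Gs-alpha, the start of the ubiquitous form, all libraries had a peak, 2602, 2402, 3452 and 3152 bp wide, with means of 2502 ± 141 bp and 3302 ± 212 bp (SD, n = 2), a 1.32-fold difference. At XL-alpha the shape of the peak differed along with its width. The liver peaks ended 57 and 7 bp before the XL-alpha start and lay over the Nespas start, whereas the yolk sac peaks ran 2343 and 1893 bp past the XL-alpha start. Upstream of the XL-alpha start they reached 3608, 3358, 4158 and 3558 bp; these reaches overlap between the tissues. A further group at 174344650, near the 3′ end of the gene, was called in yolk sac alone, with peaks of 952 and 552 bp.

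At Mest, the 5′-most annotated start at chr6:30723547, which lies 14503 bp upstream of the main start, was called in yolk sac alone. Its peaks were 1602 bp wide in replicate 1 and 1152 bp in replicate 2, and their scores stood at percentiles 92.8 and 99.7. Neither liver list had a peak at it. The starts between it and the main one, at 30731968 and from 30733454 to 30733506, were called in no list.

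At Grb10, the starts at 12038683 and 12037401 were called by 1 shared peak in all 4 lists. In yolk sac replicate 2 that peak covered the second of them and began 281 bp past the first. The internal starts at 12027971 and from 12026324 to 12026732, in the part of the gene known for transcription of the paternal copy in brain, were called in no list. Sgce had a peak near its start at 4740207 in yolk sac replicate 1 alone, 552 bp wide and at percentile 30.9.

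Zdbf2 has a further RefSeq start 72.9 kb upstream of its main start, at 63200358, which lies outside the 50 kb examined around the genes and was looked at separately. No list had a peak within 500 bp of it. Within 20 kb of it the liver lists had 0 peaks and each yolk sac list had 4. The nearest stood 3643 and 3743 bp away, was 752 and 802 bp wide, and reached percentiles 92.2 and 92.1.

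The third question concerned the number of peaks across each locus, promoter peaks included. Each locus was taken as the bodies of its genes with 50 kb on either side, and a peak was counted by its midpoint. The 7 loci held 24, 25, 92 and 80 peaks in all, on average 24.5 ± 0.707 per liver list and 86 ± 8.49 per yolk sac list (SD, n = 2). This is 1.76 against 6.19 peaks per 100 kb, and a difference of 1.81 on the log2 scale (3.50-fold), where the whole lists differed by 0.92 (1.90-fold). In 6 of the 7 loci both yolk sac lists held more peaks than either liver list, with an exact permutation p of 0.3333 in each, the smallest possible. Over the 18226 protein-coding genes with at least 1 peak within 50 kb this was so for 56.7%, and the reverse for 6.51%. Those genes were taken singly, whereas neighbouring genes of a locus were joined here, so interval lengths are not matched. The median log2 difference, after adding 0.5 to each count, was 1.95 over the 7 loci and 0.54 over those genes. The plot of peaks per locus gives the counts.

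**Figure D3:**
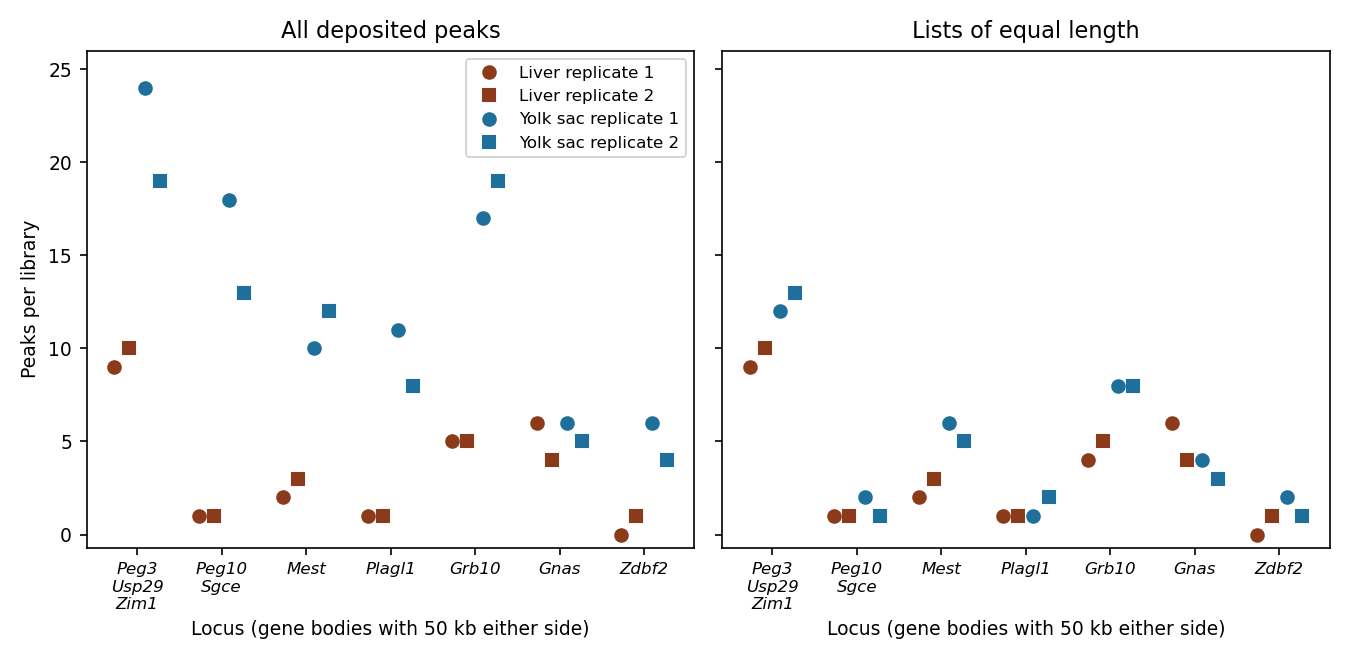
Number of peaks (vertical axis) in each of the 7 loci (horizontal axis) in each library, for all deposited peaks (left) and for lists cut to the 24333 highest-scoring peaks each (right); circles are replicate 1 and squares replicate 2. With all peaks, yolk sac counts exceed liver counts at every locus but Gnas; with lists of equal length this holds at the Peg3, Mest and Grb10 loci.

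List length bears directly on these counts. When each list was cut to its 24333 highest-scoring peaks, the loci held 23, 25, 35 and 33 peaks, a log2 difference of 0.50. Both yolk sac lists then held more peaks than either liver list in 3 of the 7 loci. Of 17698 single protein-coding genes with a remaining peak, 17.4% did so and 30.9% showed the reverse. Those were the Peg3 locus with 9, 10, 12 and 13 peaks, Mest with 2, 3, 6 and 5, and Grb10 with 4, 5, 8 and 8. A cut by score leaves the width of a remaining peak as it was, so it is no check on the promoter widths. Zim1 dropped out of the genes called in all 4 lists.

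The Peg3, Usp29 and Zim1 locus (chr7:6621269-7017219, 396 kb) held 9, 10, 24 and 19 peaks. Most of them lay along Usp29, whose 237 kb body held 7, 8, 21 and 17, while the bodies of Peg3 and Zim1 held 1 peak each in every list. The gap of 9 peaks between the nearest Usp29 counts of the tissues exceeded the 4 between the yolk sac replicates. The map of the locus shows the yolk sac peaks spread along the introns of Usp29.

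**Figure D4:**
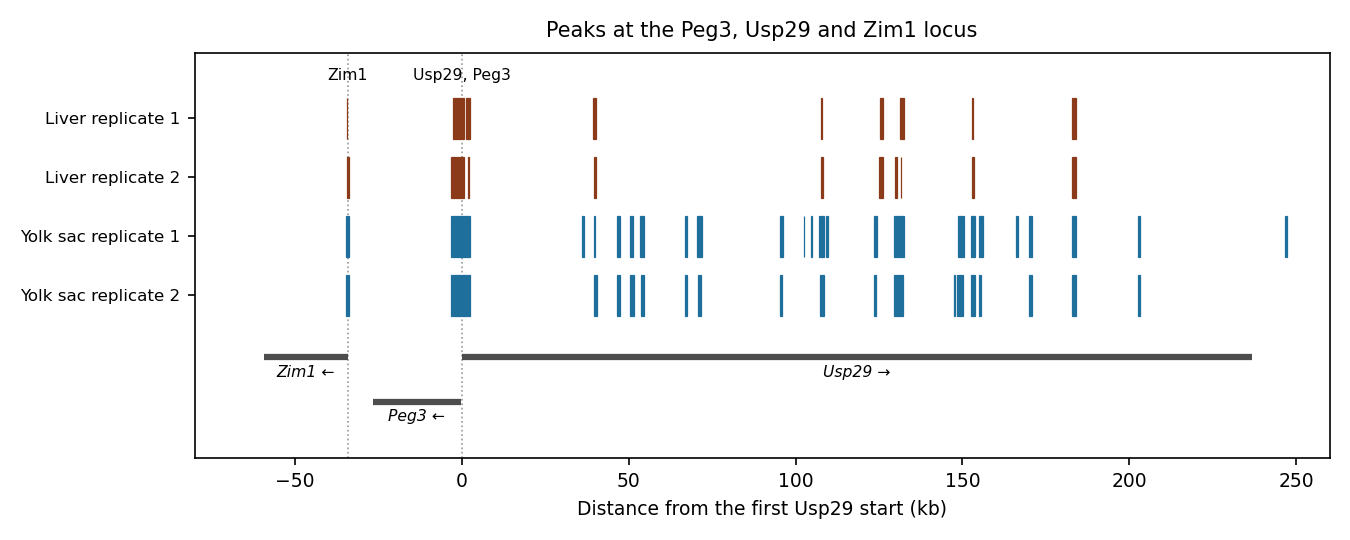
Peaks (boxes) of the 4 libraries along the Peg3, Usp29 and Zim1 locus, as distance from the first Usp29 start in kb; dotted lines mark the starts of Zim1 and of Usp29 with Peg3, and bars below mark the genes with their direction. The Usp29 body holds 7 and 8 liver peaks against 21 and 17 from yolk sac.

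The Peg10 and Sgce locus (chr6:4624350-4810517, 186 kb) held 1, 1, 18 and 13 peaks, the largest contrast of the 7. In liver its only peak was the shared promoter peak. The Sgce body of 72.9 kb held 0, 0, 8 and 6 peaks. With lists of equal length the locus held 1, 1, 2 and 1, so that nearly all of the yolk sac peaks there had scores in the lower part of their lists.

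The Mest locus (chr6:30673547-30798465, 125 kb) held 2, 3, 10 and 12 peaks, and its body held 1, 1, 3 and 4. The Plagl1 locus (chr10:13010504-13181694, 171 kb) held 1, 1, 11 and 8, and its body held 1, 1, 5 and 4. The Grb10 locus (chr11:11880508-12088683, 208 kb) held 5, 5, 17 and 19, and its body held 1, 3, 8 and 9. In each of these 3 the liver replicates differed by 1 peak or less over the locus, and the gap between the tissues was 7 or 12 peaks.

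**Figure D5:**
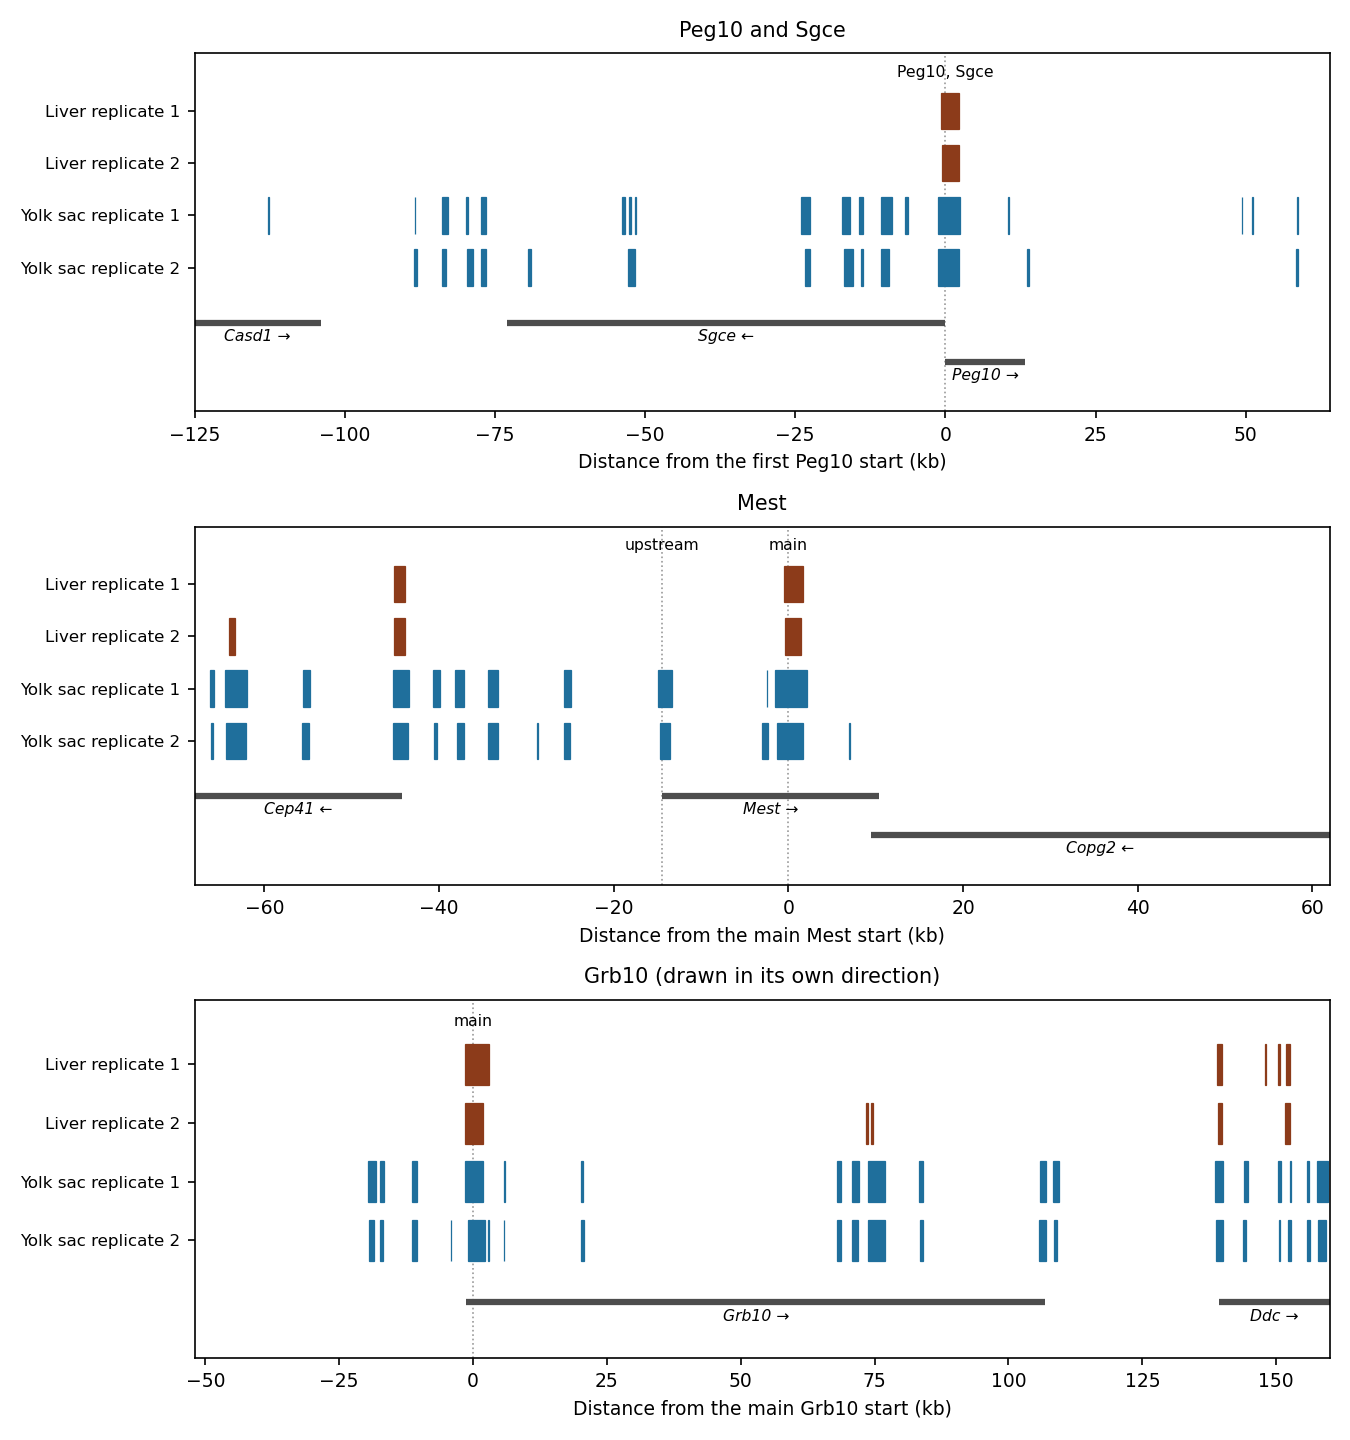
Peaks (boxes) of the 4 libraries at the Peg10 and Sgce, Mest, and Grb10 loci, each as distance in kb from the start named on its axis; dotted lines mark starts and bars below mark genes with their direction. In liver the Peg10 and Sgce locus shows the promoter peak alone, and at Mest the upstream start 14503 bp from the main one has a peak in yolk sac only.

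The Gnas locus (chr2:174234320-174396744, 162 kb) held 6, 4, 6 and 5 peaks, and was the 1 locus at which the tissues overlapped (exact permutation p = 1). All of these peaks lay inside the gene, and 4, 3, 5 and 4 of them were promoter peaks. The Zdbf2 locus (chr1:63223265-63364576, 141 kb) held 0, 1, 6 and 4, and its body held 0, 1, 2 and 1, which overlap between the tissues. Over the 10 gene bodies, 5 held more peaks in both yolk sac lists than in either liver list, and none showed the reverse. Among the 14385 protein-coding gene bodies with at least 1 peak, these shares were 32.6% and 7.92%.

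To follow single sites, peaks of the 4 lists that overlapped were merged into regions. The 7 loci held 105 regions, of which 49 (46.7%) were called in both yolk sac lists and no liver list. Over all 61095 regions this share was 33%. A further 2 regions (1.9%) were called in both liver lists alone, against 6.62%, and 16 (15.2%) in all 4, against 25.7%. No region was called in exactly 1 library of each tissue. Over all 61095 regions the 4 such pairings held 294, 82, 224 and 39, so their absence is no trait of these loci. In these loci 32 regions were called in 1 library alone, a count for which no share over all regions was computed. With lists of equal length, 11 of 47 regions (23.4%) were called in yolk sac alone and 5 (10.6%) in liver alone, against 16.8% and 15.6% of all regions. The exon 1A region of Gnas, chr2:174327051-174328202, was then among the 5, since the 102 bp peak of yolk sac replicate 1 had been cut.

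Of the 49 regions called in yolk sac alone, 28 lay inside 1 of the 10 genes, 23 of them within introns and 5 overlapping an exon. Usp29 held 11, Grb10 6, Sgce 5, Plagl1 3, Mest 2 and Gnas 1. A further 7 lay in other protein-coding genes and 14 outside any protein-coding gene. Of the 49, 6 lay within 500 bp of an annotated start of any gene. No share over all 20163 regions called in yolk sac alone was computed for these placements. The loci were built around the bodies of these genes, of which Usp29 is the longest, so the counts are not read as a preference. The 49 regions had median widths of 852 bp in yolk sac replicate 1 and 702 bp in replicate 2. All peaks of these lists had medians of 902 and 852 bp. The median percentiles of the 49 were 39.6 and 37.5. Regions called in all 4 lists had medians of 2327 and 2127 bp in the same lists.

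A few of them ranked high. The region at chr6:30703651-30704802, outside any protein-coding gene and 19.3 kb upstream of the 5′-most Mest start, stood at percentiles 94.8 and 92.0 in yolk sac. The Usp29 intron region at chr7:6825851-6826752 stood at 92.5 and 62.4. Both were among the 11 that stayed in yolk sac alone with lists of equal length, as was the upstream Mest start. At Grb10 an intron region at chr11:11960451-11964002 was 3152 bp wide in each yolk sac list, at percentiles 98.4 and 93.7. In liver it held 2 small peaks of 754 bp together in replicate 2 and none in replicate 1.

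The 2 regions called in liver alone were small or set among yolk sac peaks. One in a Usp29 intron, chr7:6855651-6856702, was 702 and 1052 bp wide, at percentiles 39.8 and 83.7, and has a region called in yolk sac alone, chr7:6854051-6854852, beside it. The other, in a Gnas intron at chr2:174333251-174333552, was 102 and 302 bp wide, at percentiles 5.04 and 6.62.

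Marker genes bear on which cells each list reflects. The erythroid list had a promoter peak in 6, 6, 1 and 1 of 6 genes, the hepatocyte list in 5, 4, 5 and 5 of 6, and the visceral endoderm list of the yolk sac in 5, 4, 7 and 7 of 7. Gata1, Klf1, Alas2, Slc4a1 and Epb42 of red cells and Cps1 of hepatocytes were called in liver alone, and Amn and Cubn, receptors of the visceral endoderm, in yolk sac alone. Of the hepatocyte genes, Fgb was called in yolk sac alone. Mesenchymal markers were called in 4, 5, 6 and 6 of 6 genes, endothelial ones in 3, 4, 4 and 4 of 4, and macrophage ones in 2, 2, 4 and 3 of 4. None of 7 trophoblast and placental markers was called in any list, and of 3 decidual markers 1, Wnt4, was called in each. These are tissues of mixed cells, so a peak seen in 1 tissue cannot be told apart from more cells of a type that uses the site. The part that these mixtures play in the widths and counts above was not tested.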

How the data were processed

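The files are 1 list of dREG peaks per library, deposited by the authors, each with a position and a score without a unit; the score was not scaled between libraries. The submitters' processing notes name mm10, Bowtie2 and bedtools, without a role for the tools. The dREG version, filters and read counts are not given in the sources used here, so depth is unknown and no counting interval can be given. From 33.5% to 55.8% of peaks per list lay within 500 bp of a GENCODE vM21 start, and 11.1% to 14.6% after a shift of 5000 bp, so the annotation of GRCm38 was used. Peaks within a list were at least 548 bp apart.

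Computed here, with Python 3.11.15 and numpy 2.4.6, were promoter calls (500 bp either side of a start), the width of the widest promoter peak, peak numbers by midpoint, merged regions (overlap of 1 bp or more) and score percentiles within a list. The functions were tested on simulated lists. Single genes and loci were tested by exact two-sided permutation of the tissue labels, which can be assigned in 6 ways. Nothing states whether the replicates are separate pools, so p-values measure only the spread between these libraries. Planned tests on totals over the genes were also computed, and those totals are given without p-values. The 10 genes, their start groups and the regions called in 1 tissue alone are named. The genes, lists, motifs and alternatives were chosen with earlier results of these data known. Nor is it stated whether libraries with the same replicate number share embryos, and the check in the closing section cannot settle this. Alternatives were higher-scoring peaks, lists of equal length, other windows, flanks, overlaps and chaining, and leaving out each library.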

Additional observations from a re-analysis of the deposited data

How the results depend on the processing

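All 5 summary results moved under some alternative. Differences are yolk sac minus liver means. With the higher-scoring 50% of each list, the difference in genes called went from 0.5 to 6, in start groups called from 4 to 9.5, in per-library median log2 width from 0.35 to 0.79 (the value of Gnas, the 1 gene then still called in all 4 lists) and in log2 locus peak number from 1.81 to 1.95, and regions called in yolk sac alone went from 49 to 15. With lists of equal length, start groups gave 2.5, width 0.24, locus peak number 0.50 and yolk sac regions 11. With the 5′-most start of each gene only, genes called gave 2 and width 0.23. Locus peak number was 1.48 with flanks of 100 kb and 1.40 without flanks, where 28 yolk sac regions remained in the gene bodies. The difference in Gnas peaks, 0.5 over locus and body alike, was −1.5 with lists of equal length and ranged from −0.5 (without liver replicate 2) to 1.5 (without liver replicate 1) as libraries were left out. Regions called in liver alone went from 2 to 5 with lists of equal length and to 4 without liver replicate 2. Leaving out each library in turn gave ranges of 0 to 1 genes, 3 to 5 start groups, 0.30 to 0.40 in width, 1.71 to 1.91 in locus peak number and 51 to 70 yolk sac regions. An omitted library loosens the rule for a region called in 1 tissue alone. Such region counts therefore tend to rise by construction, and their range does not measure stability. A difference was counted as moved when it shifted by more than the pooled SD of the replicates or changed sign. Region counts were judged by their ratio. Outside the summary results, 39 single values stayed within these limits under every alternative run, and 37 did not under at least 1. The 39 include start groups called in no list, which no cut and no omitted library can change. The replicate block leaves every difference as it was, so the count of 39 does not measure robustness. The causes of these shifts were not tested. Shorter lists and narrower intervals hold fewer peaks by construction, but this does not set the direction in which a log2 difference between tissues moves. A cut by score does not change a peak's width, so under such a cut the width summary moves with the set of genes called in all 4 lists.

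The replicate number was tried as a block, since same-numbered libraries may or may not share embryos. The deviations of same-numbered libraries were uncorrelated (r = −0.0064 over merged regions and −0.011 over genes). With so few libraries per tissue, this does not exclude a pairing. With the replicate block the differences are the same by construction: 0.5 genes, 4 start groups, 0.35 in width and 1.81 in locus peak number, with an exact p of 0.5 as the smallest possible value. No limit of detection can be given without read counts, and a missing peak may be a site below the caller's threshold.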
